A study of Bos taurus with 6 samples.

Results

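Tight junctions are the belt of contacts that seals the space between neighbouring epithelial cells near their apical side. Claudins form the strands of that belt, occludin and tricellulin are the companion proteins with a MARVEL membrane domain, JAM-A is an immunoglobulin-type adhesion molecule, and the cytoplasmic scaffolds tie all of them to the actin cytoskeleton. In uterine epithelium this seal separates the lumen from the stroma. Repressors of the ZEB and Snail families are known to silence several of these genes, and miR-200b is known to silence ZEB1 and ZEB2.

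The 9 genes described here are the claudins CLDN1 (GeneID 414922), CLDN6 (511318) and CLDN12 (538709), the MARVEL-domain genes OCLN (512405) and MARVELD2 (541110), F11R (281258), which encodes JAM-A, and the scaffold genes CGN (533725), TJP1 (407102) and TJP3 (407100). They were taken by symbol from the deposited table of 20958 genes. All 9 had reads in every library, and all 9 were among the 12217 genes abundant enough to test.

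The libraries came from the BEND line, an established culture derived from the epithelium of the bovine endometrium. One group of 3 had been transfected with a bta-miR-200b mimic, a synthetic duplex that supplies the mature microRNA, and the other group of 3 with a mimic NC, a negative control, here called NC. The amount of mimic and the hours between transfection and harvest are absent from the labels, and all 6 libraries also carry the treatment label of cell apoptosis. They do not say whether the replicates were separate cultures, so the p-values rest on library-to-library spread that may be technical.

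Library totals were 20281474 to 21129547 counts with the mimic and 19212694 to 20253017 with NC. The labelled cell type was checked against 6 epithelial and 8 stromal markers. KRT8 averaged 5529 CPM (read counts scaled to a common library total) in mimic libraries and 4494 CPM in NC libraries, and KRT19 4396 and 3917 CPM. KRT18 averaged 1048 CPM in mimic libraries and 541 CPM in NC libraries, and KRT7 2.19 and 0.215 CPM. EPCAM, a defining surface protein of epithelia, had 69, 55 and 31 reads in mimic replicates 1 to 3 and was close to absent with NC, at 2, 0 and 1 reads. The stromal genes COL1A1 and COL1A2 were abundant in both groups, at 6852 and 11767 CPM with the mimic against 6622 and 11640 CPM with NC.

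Across the 9 genes, 5 were higher with the mimic, 0 were lower and 4 did not pass the test. The higher genes were CLDN6, CLDN12, OCLN, F11R and CGN. CLDN6 was about 14.6-fold higher from a very low NC level, and the other 4 were 1.36-fold to 1.49-fold higher. CLDN1, MARVELD2 and TJP1 had log2 fold changes between −0.07 and 0.09, and TJP3 stood at 0.80 without passing.

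The test was edgeR's quasi-likelihood test over all 12217 genes, and a gene counts as called at a Benjamini-Hochberg adjusted p under 0.05. Of all tested genes 4.3% were called higher and 2.15% lower. The median log2 fold change was 0.49 over the 9 genes and 0.00090 over all genes tested. Over 27 other tested tight junction genes, described below, it was 0.02. The 9 genes were chosen with earlier results of these data known, so setting them beside all genes is a description and no test of the set. All 3 mimic libraries lay above all 3 NC libraries for 6 of the 9 genes, against 11.4% of all tested genes, and below them for 0, against 10.4%. At an unadjusted p under 0.05, 6 of the 9 were higher and 0 lower in edgeR's test. The share of all genes at that unadjusted threshold was not worked out. DESeq2 and limma-voom each called 5 of the 9 higher and 0 lower. Of all 12217 genes DESeq2 called 495 higher and 275 lower, and limma-voom 494 higher and 259 lower. The count of members called higher in edgeR's test depended on single libraries. It was 3 without mimic replicate 2, 3 without NC replicate 3 and 4 without NC replicate 1. The genes that lost their calls there were CLDN12, in all of these fits, and OCLN, in the first and second of them.

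**Figure D1:**
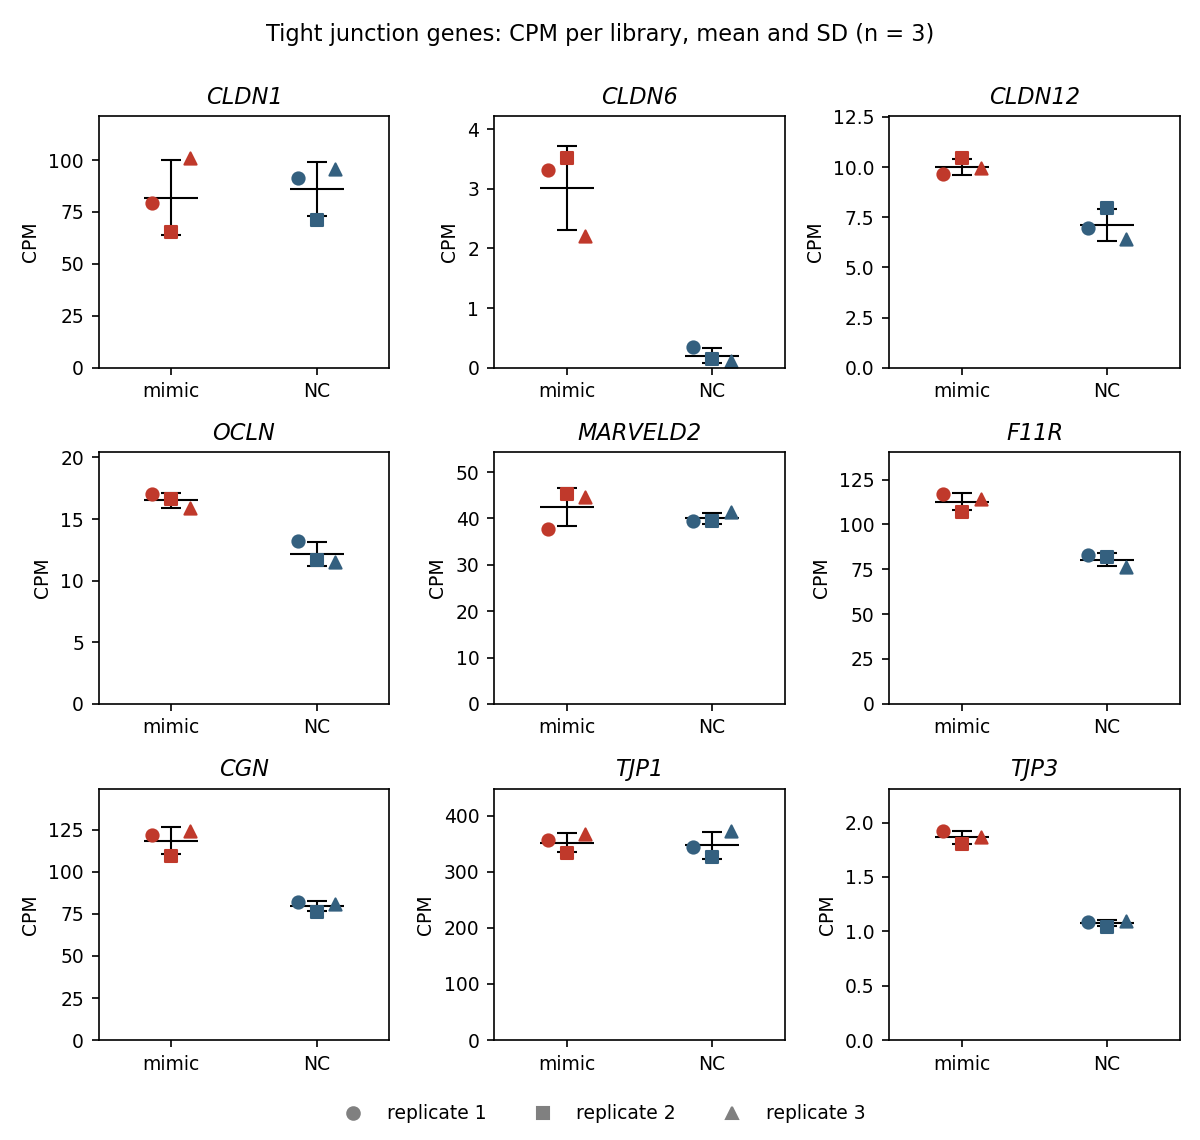
CPM of the 9 tight junction genes in each library (y axes from 0), with mimic libraries left of NC libraries, symbols for replicate numbers, and the mean with SD (n = 3 per group). The groups are apart for CLDN6, CLDN12, OCLN, F11R, CGN and TJP3 and overlap for CLDN1, MARVELD2 and TJP1.

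CLDN6 encodes a claudin known chiefly from embryonic epithelia. It had 69, 72 and 45 reads in mimic replicates 1 to 3, against 7, 3 and 2 reads in NC replicates 1 to 3. These are 3.32, 3.51 and 2.21 CPM in mimic libraries, against 0.345, 0.149 and 0.104 CPM in NC libraries. The lowest mimic library, replicate 3, was still far above the highest NC library. On the log2 scale CLDN6 rose by 3.87 ± 0.38 (SE), and its adjusted p was 1.8e-07. Summed over libraries, 186 reads against 12 put the exact 95% interval of the ratio, corrected for depth, at 8.40 to 29.6, which covers counting error only. Over all 13 alternative settings that value lay between 3.58 and 4.50, and each of them called the gene.

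In the RefSeq table CLDN6 overlaps TNFRSF12A, the receptor of the cytokine TWEAK, with the strand setting not given in the sources used here. TNFRSF12A stood at 176, 165 and 128 CPM in mimic replicates 1 to 3, against 134, 156 and 122 CPM in NC replicates 1 to 3. Those groups overlapped, and its log2 fold change, 0.18 ± 0.11, gave an adjusted p of 0.40. Replicate 3 was the lowest library of each group for both genes, while the highest library of each group differed between them. The part of shared reads in the CLDN6 values was not tested. CLDN9, the claudin gene next to CLDN6 in that table, had 0 reads in all 6 libraries.

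CLDN12 encodes a claudin that lacks the PDZ-binding tail by which most claudins hold on to the ZO scaffolds. It stood at 9.63, 10.4 and 9.93 CPM in mimic replicates 1 to 3, against 6.95, 7.98 and 6.40 CPM in NC replicates 1 to 3. The groups did not overlap. CLDN12 rose by 0.49 ± 0.13 (log2), and its adjusted p was 0.023. The adjusted p was 0.11 in edgeR's test without mimic replicate 2, without NC replicate 1 and without NC replicate 3. The deposited row carries a second GeneID, LOC112446354, which the RefSeq table lists as a pseudogene, so its reads cannot be told apart from those of CLDN12.

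CLDN1 is a barrier-forming claudin, without which the skin barrier of mice fails. It had 79.5, 65.2 and 101 CPM in mimic replicates 1 to 3, against 91.5, 71.2 and 95.6 CPM in NC replicates 1 to 3. The mimic range enclosed the NC range, and replicate 2 was the lowest library in each. Its log2 fold change, −0.07 ± 0.16, had an adjusted p of 0.88. Its unadjusted 95% interval ran from −0.44 to 0.30. That interval overlapped those of CLDN12, at 0.22 to 0.76, and OCLN, at 0.22 to 0.67. The estimate for CLDN1 was 0.07 without mimic replicate 2 and −0.25 without mimic replicate 3, and no alternative called CLDN1.

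CLDN1 varied more between replicates than nearly all genes of its abundance. Its coefficient of variation was 21.9% in mimic libraries and 15.2% in NC libraries. Within groups the SD of its log2 CPM was 0.28, against a median of 0.089 for the 2099 tested genes within 0.5 of its mean log2 CPM. Of those genes 99.8% had a smaller spread, and the 3 with a larger one were PRDM12, SESN3 and TUBB2B. The SD was 0.064 for F11R and 0.083 for CGN, which are of like read abundance. CLDN6, with few reads, had an SD of 0.48, and 75.3% of the 526 genes near its mean had a smaller one. TJP3 was at the other end, since its SD of 0.040 exceeded that of 0.176% of the 567 genes near its mean, whose median SD was 0.30. TJP3 had only 21 to 40 reads in a library, so this small spread was not taken as a property of the gene.

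**Figure D2:**
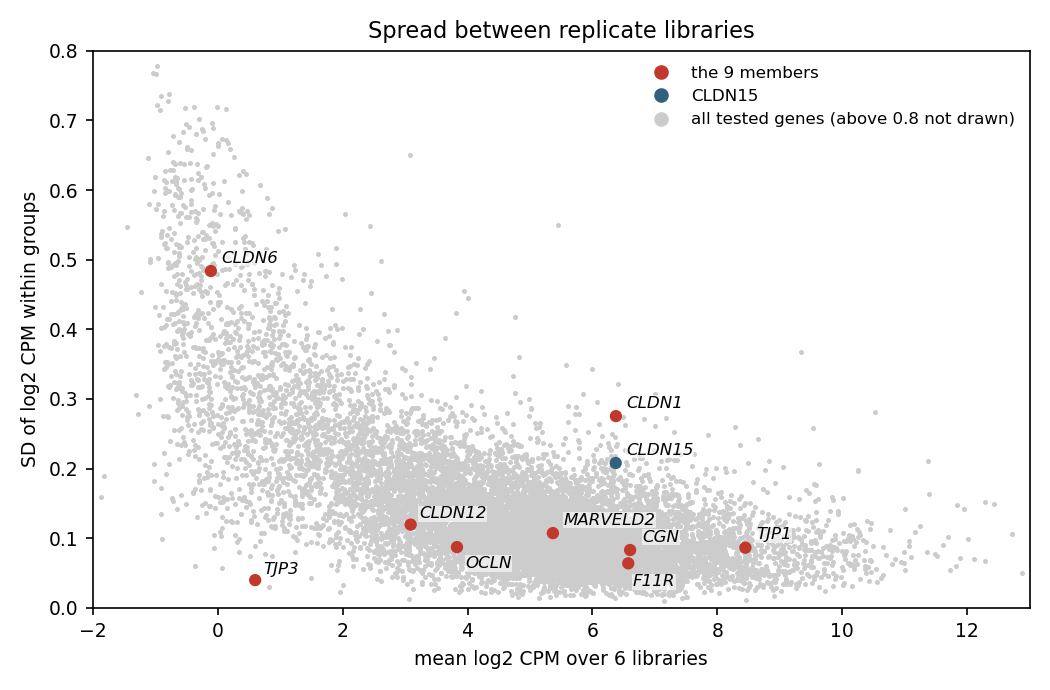
SD of log2 CPM within groups (y axis) against mean log2 CPM over 6 libraries (x axis) for all tested genes in grey, the 9 tight junction genes in red and CLDN15 in blue. CLDN1 at 0.28 and CLDN15 at 0.21 lie above most genes of their abundance, and TJP3 at 0.040 lies below nearly all of its own.

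OCLN encodes occludin, a strand protein of the contact between 2 cells. It had 17.0, 16.6 and 15.9 CPM in mimic replicates 1 to 3, against 13.3, 11.6 and 11.5 CPM in NC replicates 1 to 3. Every mimic library was above every NC library, and OCLN rose by 0.44 ± 0.11 (log2) at an adjusted p of 0.012. The adjusted p was 0.057 in edgeR's test without mimic replicate 2 and 0.066 without NC replicate 3.

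MARVELD2, whose product tricellulin sits where 3 cells meet, is the gene next to OCLN in the RefSeq table. It had 37.7, 45.2 and 44.6 CPM in mimic replicates 1 to 3, against 39.4, 39.3 and 41.4 CPM in NC replicates 1 to 3. Mimic replicate 1 was the lowest of all 6 libraries, so the groups overlapped. MARVELD2 thus differed by 0.09 ± 0.09 (log2), with an unadjusted 95% interval of −0.09 to 0.26 and an adjusted p of 0.68. MARVELD3, the remaining gene of the occludin family, had 1 read in mimic replicate 2 and 0 in the other 5 libraries.

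F11R encodes JAM-A, which binds itself across the cell contact and recruits polarity proteins and ZO-1. It had 117, 107 and 114 CPM in mimic replicates 1 to 3, against 82.9, 81.9 and 76.4 CPM in NC replicates 1 to 3. The gap between the groups was wider than the range within either of them. F11R rose by 0.49 ± 0.07 (log2) at an adjusted p of 9.0e-05, and all 13 alternatives called it. F11R overlaps TSTD1, a sulfurtransferase gene, which averaged 13.1 ± 0.661 CPM with the mimic and 13.3 ± 1.60 CPM with NC (SD, n = 3 each). A pseudogene, LOC107132057, also overlaps F11R in the RefSeq table.

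The paralogs JAM2 and JAM3, which encode JAM-B and JAM-C, were not called. JAM2 stood at 0.16 ± 0.09 (log2) with an adjusted p of 0.35, and its groups did not overlap. JAM3 stood at −0.09 ± 0.09 with an adjusted p of 0.69.

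CGN encodes cingulin, a plaque protein that binds ZO-1 and the RhoA activator GEF-H1. It had 122, 109 and 125 CPM in mimic replicates 1 to 3, against 82.3, 76.1 and 80.8 CPM in NC replicates 1 to 3. Again the lowest mimic library was clear of the highest NC library. CGN rose by 0.57 ± 0.07 (log2), which is 48.8%, at an adjusted p of 1.4e-05, and all 13 alternatives called it. Its paralog CGNL1, which encodes paracingulin, had 32, 28 and 31 reads against 42, 25 and 15 reads, so its groups overlapped, and its value of 0.11 ± 0.30 (log2) had an adjusted p of 0.91.

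TJP1 encodes ZO-1, the scaffold on which claudin strands assemble. It had 356, 333 and 366 CPM in mimic replicates 1 to 3, against 344, 326 and 373 CPM in NC replicates 1 to 3. The highest and the lowest library were both NC libraries. TJP1 differed by 0.02 ± 0.07 (log2) at an adjusted p of 0.94, and the unadjusted 95% interval of −0.13 to 0.16 ended below the estimates for CGN and F11R. TJP1 overlaps a pseudogene in the RefSeq table.

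TJP3 encodes ZO-3, the ZO protein most restricted to epithelia. It had 40, 37 and 38 reads in mimic replicates 1 to 3, against 22, 21 and 21 reads in NC replicates 1 to 3. In CPM it averaged 1.87 ± 0.0605 with the mimic and 1.07 ± 0.0279 with NC (SD, n = 3 each), with no overlap. Its difference of 0.80 ± 0.26 (log2) had an adjusted p of 0.067, between 0.051 and 0.21 over the alternatives, so it was never called.

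**Figure D3:**
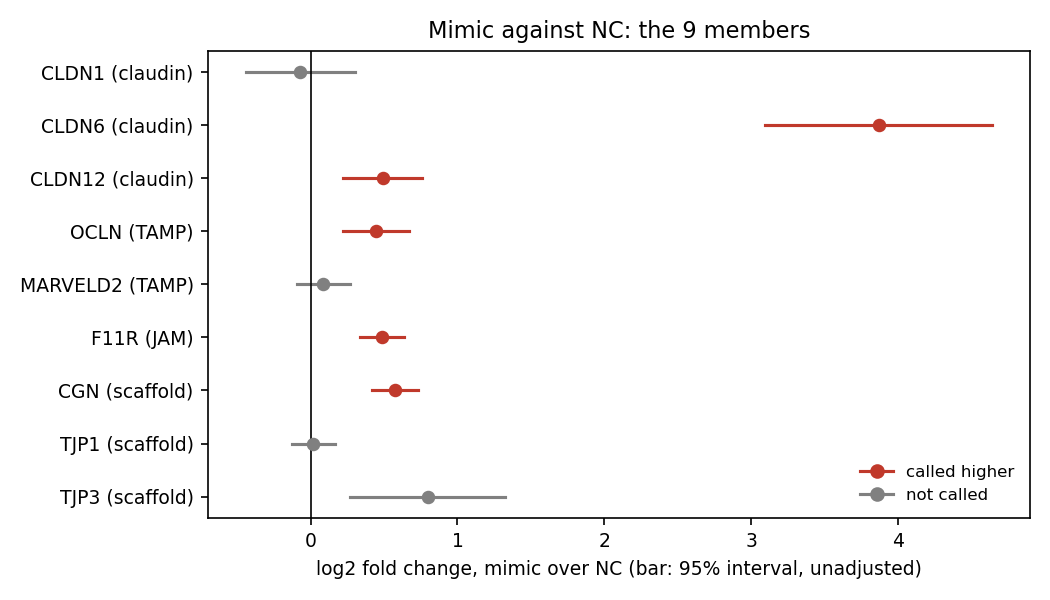
Log2 fold change of mimic over NC (x axis) for the 9 tight junction genes, with the class of each in brackets (TAMP: MARVEL-domain protein) and bars for the unadjusted 95% interval. CLDN6 stands at 3.87, CLDN12, OCLN, F11R and CGN lie between 0.44 and 0.57, and the bars of CLDN1, MARVELD2 and TJP1 cross 0.

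Ratios of reads between a pair of these genes within a library are free of the scaling of library sizes, and 8 pairs, chosen after the values were seen, were compared. With 3 libraries per group the exact two-sided permutation test cannot give a p below 0.1. CGN had 0.328 to 0.343 reads for each TJP1 read in mimic libraries, against 0.216 to 0.239 in NC libraries. The mean log2 ratio differed by 0.55, with SDs of 0.033 with the mimic and 0.076 with NC. OCLN had 0.356 to 0.451 reads for each MARVELD2 read with the mimic, against 0.278 to 0.336 with NC, a difference of 0.37 on the log2 scale. In each of these pairs every mimic library was above every NC library, at an exact permutation p of 0.1 (0.13 adjusted over the 8 pairs).

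TJP3 against TJP1 differed by 0.78 on the log2 scale, without overlap and at the same exact permutation p of 0.1. CLDN6 against CLDN1 also separated the groups, with a difference of 4.16. F11R against CLDN1, at 0.57, and CLDN12 against CLDN1, at 0.58, did not, with an exact permutation p of 0.2 each (0.2 adjusted). For both pairs the range with the mimic overlapped that with NC.

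**Figure D4:**
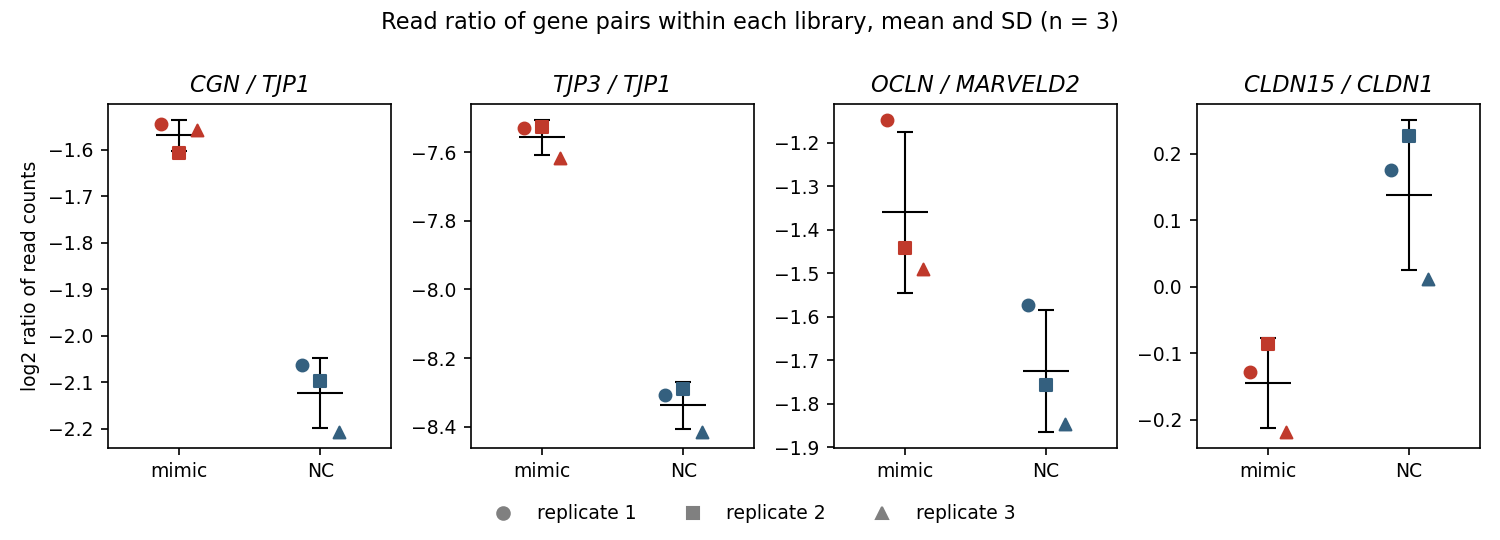
Log2 ratio of read counts within each library (y axis, each panel with its own range) for CGN to TJP1, TJP3 to TJP1, OCLN to MARVELD2 and CLDN15 to CLDN1, with mimic left of NC and the mean with SD (n = 3 per group). The first 3 ratios were higher in all mimic libraries and the ratio of CLDN15 to CLDN1 was lower in all of them.

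The rest of the claudin family was mostly silent. Of 22 claudin genes listed, 21 were in the table, 11 of these had 0 reads in all 6 libraries and 6 had reads but were too low to test. The 4 tested were CLDN1, CLDN6, CLDN12 and CLDN15. A count of 0 over a group allows up to 0.0487 CPM with the mimic and 0.0503 CPM with NC, taking 3 reads over the group as the limit and counting error alone. CLDN4, a common claudin of glandular epithelia, had 0 reads throughout. CLDN3, its neighbour in the RefSeq table, had 2, 1 and 3 reads with the mimic against 0, 5 and 1 with NC, and CLDN7 had 6 reads in mimic replicate 3 and 0 elsewhere.

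CLDN15, a cation pore of the intestine in mice, was called lower. It had 72.7, 61.4 and 86.7 CPM in mimic replicates 1 to 3, against 103, 83.3 and 96.4 CPM in NC replicates 1 to 3. Mimic replicate 3 was above NC replicate 2, so the groups overlapped. CLDN15 fell, with a log2 fold change of −0.36 ± 0.10, at an adjusted p of 0.048. Of the 13 alternatives 9 called CLDN15, down to an adjusted p of 1.1e-05 in edgeR's test without mimic replicate 3. The other 4 were also fits of edgeR's test with 1 library left out. Their adjusted p was 0.23 without mimic replicate 1 and 0.28 without mimic replicate 2. It was 0.23 without NC replicate 1 and 0.11 without NC replicate 3. Like CLDN1, CLDN15 was lowest in replicate 2 of each group. For each CLDN1 read there were 0.859 to 0.942 CLDN15 reads with the mimic, against 1.01 to 1.17 with NC, with no overlap and an exact permutation p of 0.1 (0.13 adjusted over the 8 pairs).

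Other tight junction genes were taken from a list of 51, of which 50 were in the table and 27 were tested. Of the 27, 4 rose, 2 fell and 21 did not pass, and the median log2 fold change was 0.02. The shares were 14.8% higher and 7.41% lower, beside 4.3% and 2.15% of all genes tested. LSR encodes angulin-1, which brings tricellulin to the contact of 3 cells, and it averaged 26.9 ± 2.11 CPM with the mimic and 18.6 ± 1.27 CPM with NC (SD, n = 3 each). It rose 1.44-fold with an adjusted p of 0.0011, and all 13 alternatives called it. Its relative ILDR2 stood at −0.09 ± 0.08 (log2).

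Of 14 tested scaffold genes other than the members, 3 rose and 0 fell. The rise in 21.4% stands beside 4.3% of all genes called higher, and 2.15% of all genes were called lower. PATJ, a multi-PDZ partner of ZO-3 and the claudins, averaged 143 ± 5.18 CPM with the mimic and 72.9 ± 5.51 CPM with NC and rose 1.96-fold. AMOTL2, an angiomotin relative that binds polarity proteins, rose 1.28-fold, and AFDN, the actin-binding partner of nectins and ZO-1, rose 1.21-fold. AFDN and AMOTL2 lost their calls without NC replicate 1, with an adjusted p of 0.16 and 0.055 in edgeR's test. For a fall among these scaffolds, 1 gene reached an unadjusted p under 0.05 in edgeR's test, and DESeq2 and limma-voom called 0. That gene, MAGI2, had 31, 26 and 30 reads with the mimic against 41, 42 and 58 reads with NC, a difference of −0.74 ± 0.25 (log2) at an adjusted p of 0.077. It overlaps PHTF2 in the RefSeq table.

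CLMP, a membrane protein related to the coxsackie and adenovirus receptor, fell by 38.6%. It averaged 2.52 ± 0.0508 CPM with the mimic and 4.10 ± 0.570 CPM with NC, with an adjusted p of 0.023 that was 0.061 without mimic replicate 1, 0.084 without mimic replicate 2 and 0.11 without NC replicate 2 in edgeR's test. The receptor itself, CXADR, stood at −0.16 ± 0.07 with an adjusted p of 0.25. None of the 6 tested junction regulators passed in edgeR's test, DESeq2 or limma-voom, and 0 had an unadjusted p under 0.05. Among them ARHGEF2, the gene of the cingulin partner GEF-H1, stood at −0.06 ± 0.07 (log2).

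**Figure D5:**
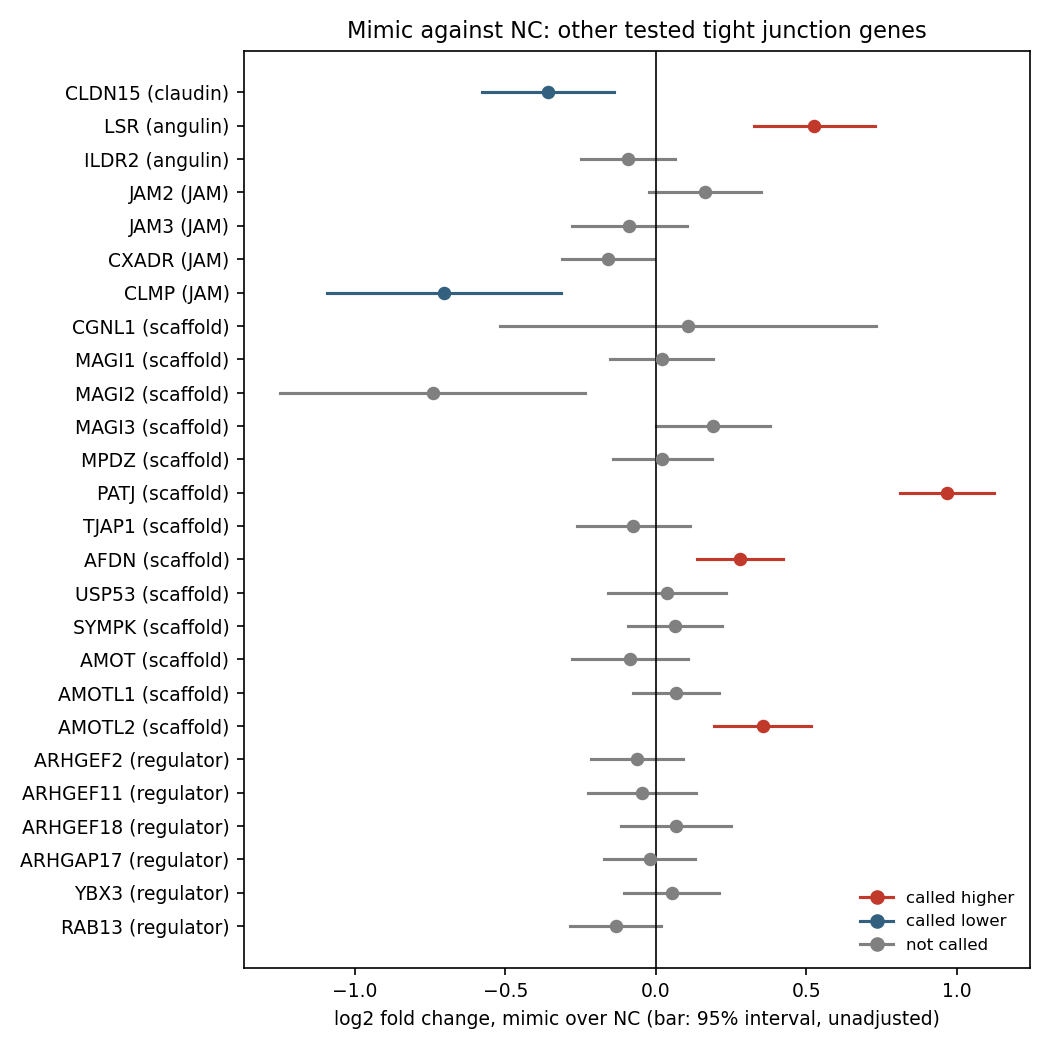
Log2 fold change of mimic over NC (x axis) for 26 of the 27 other tested tight junction genes, with bars for the unadjusted 95% interval and the class of each gene in brackets. PATJ at 0.97, LSR at 0.53, AMOTL2 at 0.36 and AFDN at 0.28 were called higher, and CLDN15 at −0.36 and CLMP at −0.70 were called lower.

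The deposited annotation gave broader sets, which were added after the values were seen. Of 63 tested genes with the term for bicellular tight junction, members left out, 9 were higher and 2 lower, which is 14.3% and 3.17% beside 4.3% and 2.15% of all genes. Of 110 tested genes of the KEGG tight junction pathway, members left out, 15 were higher and 1 lower, or 13.6% and 0.909%. Their medians were 0.04 each on the log2 scale. Genes called higher in these sets included the myosin genes MYH9, MYH10 and MYH7B and the tubulin genes TUBA4A and TUBA1D. CCND1, MAP3K5, VASP and the epithelial marker EPCAM were called higher in them as well. The shares are therefore not those of junction proteins alone. Both sets share genes with each other and with the list of other tight junction genes, PATJ and AMOTL2 among them, so the shares are not independent. Besides PATJ, the called genes included CRB3, the apical Crumbs protein that binds the PATJ complex, at 18.3 ± 1.77 CPM with the mimic and 0.388 ± 0.159 CPM with NC. LLGL2, a basolateral polarity protein, stood at 16.8 ± 1.98 CPM with the mimic and 8.30 ± 0.792 CPM with NC, and MPP7, a membrane scaffold that assists junction assembly, at 8.31 ± 1.43 CPM with the mimic and 4.37 ± 0.132 CPM with NC (SD, n = 3 each).

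Of 4 repressors known to act on junction genes, ZEB1 and SNAI2 were lower in the mimic libraries and ZEB2 and SNAI1 did not pass. That is 2 of 4, beside 2.15% of all genes called lower. ZEB1 had 25.8, 30.3 and 31.8 CPM in mimic replicates 1 to 3, against 40.5, 37.9 and 42.1 CPM in NC replicates 1 to 3. ZEB2 had 83, 85 and 72 reads in mimic replicates 1 to 3, against 99, 108 and 108 reads in NC replicates 1 to 3. Its groups did not overlap either, and its difference of −0.44 ± 0.16 (log2) was close to the −0.46 ± 0.09 of ZEB1, at an adjusted p of 0.12. SNAI1 stood at 0.04 ± 0.11 (log2). Of 9 transcription and splicing factors of epithelia, 6 were tested, and OVOL2 and KLF5 rose. These are 33.3% of the tested factors, beside 4.3% of all genes called higher. OVOL2, a repressor of ZEB1, had 16, 14 and 11 reads with the mimic against 0 in each NC library. GRHL2, an activator of claudin genes in epithelia of mice, had 0 reads throughout.

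Among 6 epithelial markers 5 rose, which is 83.3%, beside 4.3% of all genes called higher. CDH1, the gene of E-cadherin, averaged 36.5 ± 2.29 CPM with the mimic and 11.3 ± 0.912 CPM with NC (SD, n = 3 each). Among 8 stromal markers DCN, PDGFRA and PDGFRB fell and 5 did not pass, with a median log2 fold change of −0.19. The fall in 37.5% of the list stands beside 2.15% of all genes called lower. Of these 8, 2 had a value above 0, COL1A1 and COL1A2, and 5 were lower at an unadjusted p under 0.05. The summed level of the stromal markers, most of it from COL1A1 and COL1A2, was 20114 to 22877 CPM in mimic libraries and 21117 to 22846 CPM in NC libraries, so it overlapped.

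Of 8 endothelial markers 2 were tested. PECAM1 fell, with 43, 26 and 28 reads in mimic replicates 1 to 3 against 61, 54 and 64 reads in NC replicates 1 to 3, at an adjusted p of 0.015. VWF had 27, 28 and 29 reads with the mimic against 37, 35 and 38 reads with NC, without overlap and at an adjusted p of 0.37. CLDN5 was at 0, CDH5 had at most 3 reads in a library, and the summed level of the list was 3.07 to 3.64 CPM with the mimic and 5.27 to 6.50 CPM with NC.

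Of 6 leukocyte markers 2 were tested. CD14 fell, with 40, 35 and 43 reads in mimic replicates 1 to 3 against 69, 59 and 59 reads in NC replicates 1 to 3, at an adjusted p of 0.041 in edgeR's test, while DESeq2 and limma-voom called 0 genes of the list lower. CD68 had 19, 24 and 14 reads with the mimic against 19, 15 and 14 reads with NC and did not pass. LCP1, too low to test, had 9, 26 and 10 reads with the mimic against 3, 8 and 2 reads with NC. PTPRC and CD3E had 0 reads in all 6 libraries, and the summed level of the list was 3.52 to 4.34 CPM with the mimic and 4.27 to 4.73 CPM with NC. In bulk libraries fewer cells of a type and less RNA per cell cannot be told apart, and the part of such markers in the junction values was not tested.

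For the 3 members with the smallest p, the genes of most like pattern were sought among 10871 genes whose mean log2 CPM was 1 or more, by the root mean square difference of centred log2 CPM over the 6 libraries. For F11R they were MS4A8, S100A14 and FZD1, with differences of 0.017, 0.034 and 0.049. For CGN they were TLN2, FZD4 and PPM1H, with differences of 0.054, 0.059 and 0.060. CLDN6 itself lies below that limit, so genes of its own low abundance were not compared with it. Among the genes compared, those nearest to it were MAP7 at 0.22, LY6G6C at 0.45 and HSD3B1 at 0.68. The likeness is a description over 6 libraries that share the 2 groups.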

How the data were processed

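Per the labels' protocols, RNA of BEND cells was extracted with TRIzol and made into stranded TruSeq mRNA libraries. The authors deposited raw counts per gene in 1 table with 6 library columns, per the file headers. The submitters' processing notes list HTSeq, HISAT2 and Trimmomatic, with versions, genome build, annotation and strand setting not given in the sources used here. No coordinates are therefore printed, and the RefSeq table (assembly ARS-UCD2.0) served only for names and neighbours. It held 97.8% of the GeneIDs. Gene lengths were not used here, so levels are not compared between genes, and no sequence was used.

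CPM used TMM-scaled library sizes. Genes passed edgeR's filterByExpr (minimum count 10, minimum total 15). Genes were tested in R 4.3.3 with the quasi-likelihood method of edgeR 4.0.16, two-sided, with the group as single factor. Benjamini-Hochberg adjustment ran over 12217 genes. The method was checked on simulated counts that gave all genes the same dispersion. That check cannot show how the test behaves for genes of unusual spread, such as CLDN1. Each SE was obtained as the absolute log2 fold change over the root of the F statistic. Alternatives were RLE and upper-quartile scaling, no filter, a stricter filter (CPM 1 or more in 3 libraries), a replicate block, leaving out each library, limma-voom (limma 3.58.1) and DESeq2 1.42.0. The members and lists were chosen with earlier results of these data known. The text names all members, called or paralogous junction genes, up to 4 genes of each other list by smallest p, and 3 genes of like pattern for each of 3 members. The annotation sets and the called genes named from them, the overlapping neighbours, the spread comparison and the gene pairs were chosen after values were seen. So were CLDN3, CLDN4, CLDN7, CLDN9, ILDR2, MAGI2, CXADR, ARHGEF2, CRB3, LLGL2, MPP7 and GRHL2. The markers KRT8, KRT19, COL1A1, COL1A2, LCP1, PTPRC, CD3E, CLDN5 and CDH5 were also chosen after values were seen. The results of 1 other tight junction gene, 1 of the 8 gene pairs included, are not reported here.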

Additional observations from a re-analysis of the deposited data

How the results depend on the processing

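The count of members called higher was 5 under both other scalings, both other filters, DESeq2, limma-voom and the replicate block, and 3 to 5 when 1 library was left out. The count called lower was 0 in all of these fits. Other tight junction genes called higher numbered 2 to 4, and those called lower 0 to 2, when 1 library was left out. Over all genes the higher calls were 275 to 731 and the lower calls 82 to 414 in those fits. With 3 libraries a group, leaving 1 out also takes away residual degrees of freedom. The log2 fold change of CLDN1 ran from −0.25 to 0.068 and that of TJP1 from −0.032 to 0.072 when 1 library was left out, so their signs changed, and neither was called. The cause was not tested. No scaling moved the median of all genes by more than 0.01 on the log2 scale.

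The replicate block gave 816 higher and 496 lower genes. It called the same 5 members, and MAGI2 became called, at an adjusted p of 0.040 in edgeR's test. CLDN15 stayed called, at an adjusted p of 4.1e-05 in that test with the block, against 0.048 without it. The sample titles number the libraries of both groups Group1 to Group3, without saying whether equal numbers are pairs. Libraries of the same number had correlations of −0.051, 0.13 and 0.19 between their deviations from the group means. The numbers were therefore not taken as pairs, although with 3 libraries a group such correlations cannot exclude pairing. Mimic replicate 1 was closest to NC replicate 2, at 0.17. Depth limits CLDN6 and TJP3, with fewer than 100 reads in each library, and the claudins with 0 to 6 reads.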
